A study of Mus musculus with 8 samples.

Results

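The nuclear genes for the subunits of oxidative phosphorylation were followed in RNA-seq libraries of mouse embryonic stem cells. Genes were chosen by symbol (Ndufa, Ndufb, Ndufc, Ndufs and Ndufv followed by a number, Sdha to Sdhd, and symbols beginning with Uqcr, Cox4 to Cox8 or Atp5a to Atp5o), with pseudogene symbols dropped. Of 38610 symbols in the deposited table, 82 matched, and the 77 with a mean of at least 1 FPKM over the 8 libraries were kept. FPKM values are fragment numbers corrected for transcript length and for library size. By the start of the symbol, 37 belonged to complex I, 4 to complex II, 8 to complex III, 13 to complex IV and 15 to complex V. The 5 left out were Cox4i2 with a mean of 0.776 FPKM, Cox7b2 with 0.0489 FPKM from 1 library, and Cox6a2, Cox8b and Cox8c, listed at 0 in every library. Just inside the limit lay Ndufa4l2 with 2.10 FPKM, and the next gene up was Ndufs4 with 11.2 FPKM.

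The cells were of the CJ9 line of strain 129S4/SvJae, harvested on day 4 of culture without LIF (leukemia inhibitory factor), a cytokine that keeps these cells undifferentiated. There were 3 libraries labelled EVX1 KO, 3 of Evx1as KO and 2 of WT cells, and the series title gives the knockouts as made by CRISPR. The homeobox factor EVX1 acts in the primitive streak of the embryo, and the long noncoding RNA Evx1as comes from the same locus. The labels do not say whether a knockout line was 1 clone or whether replicates were separate cultures. The p-values therefore measure only the spread between these libraries, and that spread may be technical. Within groups the medians of whole chromosomes also differed, as given below for chromosomes 8 and 14, and the reason was not tested.

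Oxidative phosphorylation couples the oxidation of NADH and succinate to the synthesis of ATP at the inner mitochondrial membrane. Complex I (NADH dehydrogenase) and complex II (succinate dehydrogenase) pass electrons through ubiquinone to complex III (cytochrome bc1) and through cytochrome c to complex IV (cytochrome c oxidase). Complexes I, III and IV pump protons, and complex V (ATP synthase) uses the gradient to make ATP. Most subunits are encoded in the nucleus and a small core of complexes I, III, IV and V in mitochondrial DNA. Several nuclear subunits have alternative genes that are used in particular tissues, and pluripotent cells are known for a strong reliance on glycolysis.

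Summed FPKM ran from 531523 to 587798 per library, and between 12244 and 12442 genes reached 1 FPKM. The table holds no read counts, which leaves the absolute depth unknown. Relative depth, read from the steps between low values of a gene, lay between 0.865 and 1.19 times that of WT replicate 1. Evx1as, listed as 5730457N03Rik, had 5.01, 8.81 and 7.39 FPKM in EVX1 KO, 0.0549, 0.104 and 0.0485 in Evx1as KO, and 5.36 and 6.75 in WT. Evx1 itself had 26.3, 20.8 and 31.7 FPKM in EVX1 KO, 2.45, 3.84 and 0.541 in Evx1as KO, and 21.97 and 31.2 in WT, so the transcript level gives no check of the label EVX1 KO, which is used here only as a name. Of the stem cell markers, Pou5f1 lay between 302 and 458 FPKM in all 8 libraries. The streak marker T lay between 29.6 and 221 FPKM.

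Some marker lists differed between the groups and others overlapped, and the part of either in the results below was not tested. The 8 embryonic stem cell markers summed to 679 to 694 FPKM in EVX1 KO, 1052 to 1112 in Evx1as KO and 604 to 714 in WT. In Evx1as KO against WT 5 of these 8 were called higher, against 13.0% of the genes tested. The 6 primitive streak and mesoderm markers summed to 304 to 333 FPKM in EVX1 KO, 39.6 to 135 in Evx1as KO and 326 to 366 in WT. In Evx1as KO against WT 5 of these 6 were called lower, against 11.4% of the genes tested. The 5 endoderm markers summed to 34.03 to 60.2 FPKM in EVX1 KO, 0.842 to 6.03 in Evx1as KO and 13.7 to 25.2 in WT, with Afp at or near 0. The 4 neuroectoderm markers summed to 26.3 to 62.8 FPKM in EVX1 KO, 60.2 to 82.8 in Evx1as KO and 62.8 to 79.2 in WT, nearly all from Nes. The 6 fibroblast or feeder markers summed to 18.4 to 24.04 FPKM in EVX1 KO, 11.7 to 20.9 in Evx1as KO and 18.4 to 31.6 in WT, with Postn at or under 0.299 FPKM. The 5 heart muscle markers summed to 10.999 to 21.6 FPKM in EVX1 KO, 7.33 to 9.08 in Evx1as KO and 12.7 to 26.4 in WT, mostly Actc1, and the 4 skeletal muscle markers summed to 0.0676 to 0.244 FPKM in EVX1 KO, 0.125 to 0.243 in Evx1as KO and 0.126 to 0.431 in WT. In bulk RNA, more or fewer cells of a type and more or less RNA per cell cannot be told apart.

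The 77 genes were expressed throughout. Together they took 1.86%, 1.90% and 1.94% of summed FPKM in EVX1 KO, 2.03%, 1.96% and 1.99% in Evx1as KO, and 2.09% and 1.98% in WT. The EVX1 KO shares lay below all others. Of the members' FPKM, complex V took between 32.5% and 34.4% per library, complex I between 27.4% and 28.2%, and complex IV between 26.7% and 28.5%. Complex III took between 7.87% and 8.82%, and complex II between 2.62% and 3.08%. The balance between the complexes thus moved by a few percentage points at most over the 8 libraries.

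The 5 highest genes by mean FPKM were Atp5b, Atp5g2, Cox6a1, Cox8a and Cox5b. Atp5b, the catalytic beta subunit of ATP synthase, had 550.1, 592 and 639.5 FPKM in EVX1 KO, 604, 577 and 574 in Evx1as KO, and 632 and 602 in WT. Cox6a1, the widely expressed form of subunit VIa of cytochrome c oxidase, had 548, 529 and 499.8 FPKM in EVX1 KO, 505, 515 and 525 in Evx1as KO, and 608 and 558 in WT. Their order by mean FPKM, which is a level per length, was close at the top: Atp5b and Atp5g2 averaged 596 and 568 FPKM and their libraries overlapped, as did those of Cox6a1 at 536 and Cox8a at 499.5. Cox5b, subunit Vb, had 412, 440.2 and 411 FPKM in EVX1 KO, 472, 481 and 465 in Evx1as KO, and 459 and 418 in WT.

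Levels of most members varied little. The highest library was under 1.5 times the lowest for 52 of the 77 (67.5%), against 31.6% of the 13188 genes tested and 50.4% of the 5968 genes averaging 10 FPKM or more. Under 2-fold were 69 (89.6%), against 62.5% and 83.7%. The widest spans belonged to Ndufs5 at 8.06-fold, Uqcrb at 5.33-fold, Cox6b2 at 4.44-fold, Ndufa4l2 at 3.06-fold and Cox7a1 at 2.75-fold. These are 2 structural subunits and 3 alternative forms of a subunit.

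**Figure D1:**
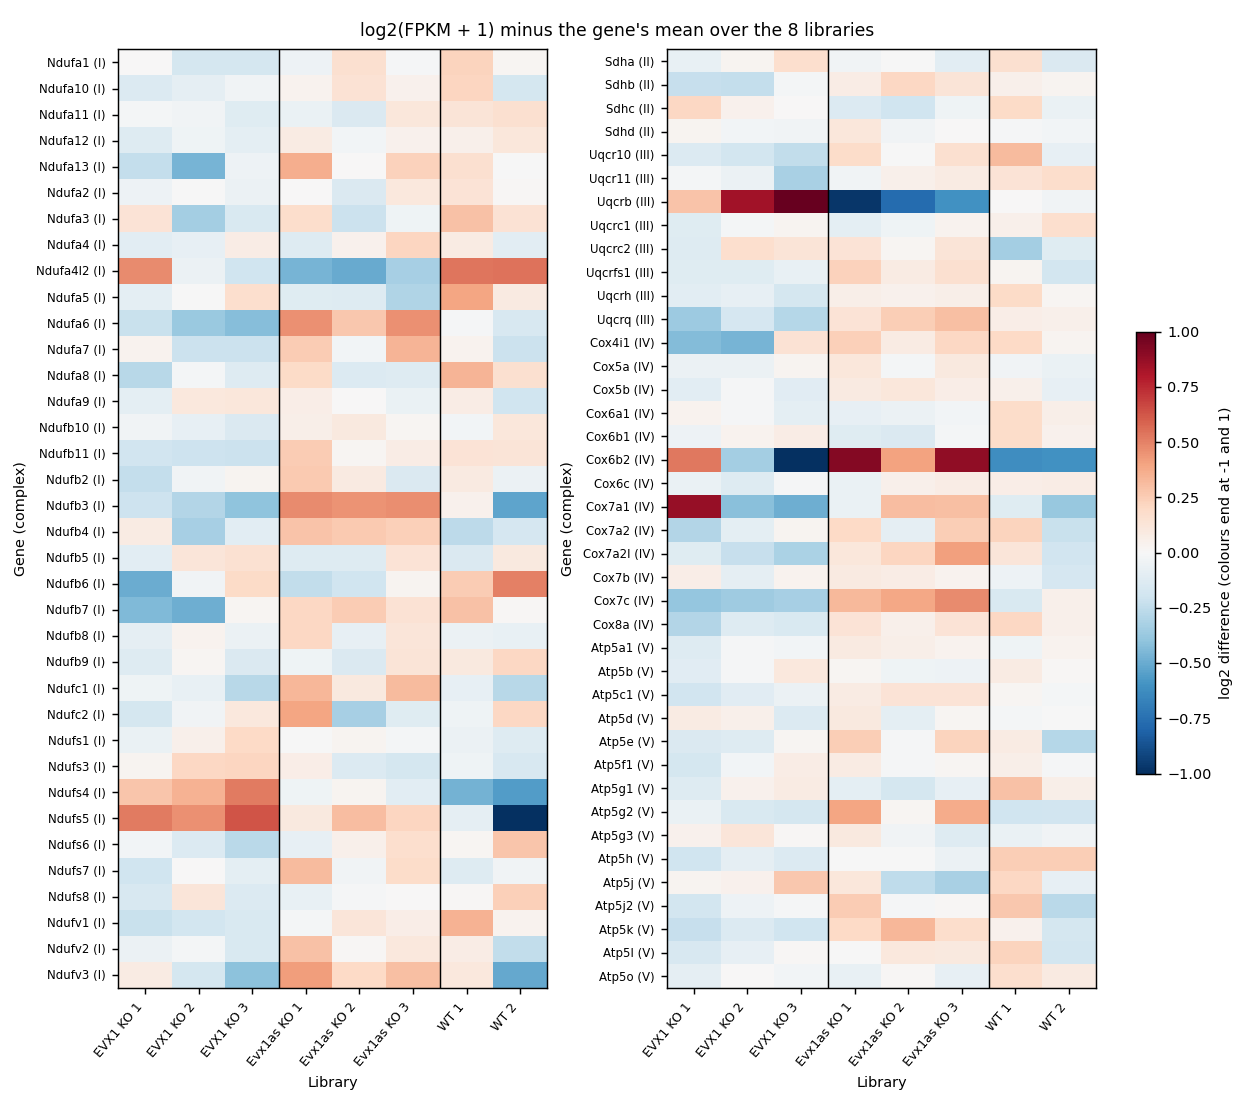
Log2(FPKM + 1) of the genes, 1 of them left out, in each library (columns, EVX1 KO, Evx1as KO and WT from left to right) minus the gene's mean over the 8 libraries, with genes in rows by complex. Most rows are pale, and the strongest colours belong to Ndufs5, Uqcrb, Cox6b2, Ndufa4l2 and Cox7a1.

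Group differences were tested with limma on log2(FPKM + 1) across the 13188 genes that reached 1 FPKM in 2 or more libraries, and a Benjamini-Hochberg adjusted p under 0.05 was called. Fold changes below are on that log2 scale, with their standard error, and understate changes of low genes. The 3 comparisons share libraries, so their counts are not independent of each other. All 77 members were tested. In Evx1as KO against WT the groups did not overlap for 46.8% of the members, against 55.6% of the genes tested. The shares were 44.2% against 39.1% in EVX1 KO against WT, and 44.2% against 40.8% in EVX1 KO against Evx1as KO. Groups without overlap, as described for single genes below, were thus common among all genes.

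In Evx1as KO against WT, 9 members were called higher (13.0% of genes tested were) and 5 lower (11.4% were). The 14 called members are 18.2% of the 77, against 24.5% of the genes tested. Their log2 fold changes had a median of 0.046, against 0.017 over all genes tested. By complex the medians were 0.022, −0.0039, −0.026, 0.12 and 0.029 for I to V. Single subunits therefore moved in either direction and the share of members called was not above the background. The counts leaned on single libraries: 2 higher and 2 lower were called without WT replicate 2, 5 and 1 without WT replicate 1, 4 and 2 without Evx1as KO replicate 1, and 5 and 2 without Evx1as KO replicate 3. Members called lower numbered 3 without replicate 2 of Evx1as KO and as many without replicate 2 of EVX1 KO. The median was 0.095 without WT replicate 1 and −0.021 without WT replicate 2.

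In EVX1 KO against WT, Ndufs4 alone was called higher (0.690% of genes tested were) and Atp5h alone lower (0.554% were). These 2 are 2.60% of the members, against 1.24% of the genes tested. Values below 0 were found for 52 of the 77, against 6210 of the 13188 genes tested. The median over the 77 was −0.11, against 0.018 over all genes tested. The medians of complexes I to V were −0.12, 0.014, −0.19, −0.12 and −0.065. An unadjusted p under 0.05 was reached by 23 members (29.9%), against 21.2% of the genes tested. None was called higher without EVX1 KO replicate 2 or WT replicate 2, and none lower without any single library other than EVX1 KO replicate 3, whose absence gave 3 lower. Without WT replicate 1 the values of 43 members lay below 0, with a median of −0.029, and without WT replicate 2 those of 58, with a median of −0.17.

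In EVX1 KO against Evx1as KO, 3 members were called higher (10.7% of genes tested were) and 16 lower (11.3% were). These 19 are 24.7% of the members, against 22.0% of the genes tested. Values lay below 0 for 57 of the 77, against 6629 of the 13188 genes tested. The median over the 77 was −0.12, against −0.0020 over all genes tested. The medians of complexes I to V were −0.12, 0.025, −0.17, −0.19 and −0.12. The members called lower were 6 without Evx1as KO replicate 1 and 5 without Evx1as KO replicate 3 or EVX1 KO replicate 2. With any 1 library left out, between 53 and 58 members had values below 0.

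Transcript length moved with these medians. By the median length of a gene's matched transcripts, the members had a median of 732 nt, against 2854 nt for 11619 tested genes with a length, and 54 of the 77 (70.1%) were at most 1000 nt, against 7.36% of tested genes. Tested genes of at most 1000 nt had median log2 fold changes of 0.077 in Evx1as KO against WT, −0.083 in EVX1 KO against WT and −0.16 in EVX1 KO against Evx1as KO. Longer tested genes had 0.013, 0.026 and 0.0096. The 855 tested genes of at most 1000 nt include the 54 members of that length, and the longer genes include the other members. The part of length in the members' medians was not tested.

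**Figure D2:**
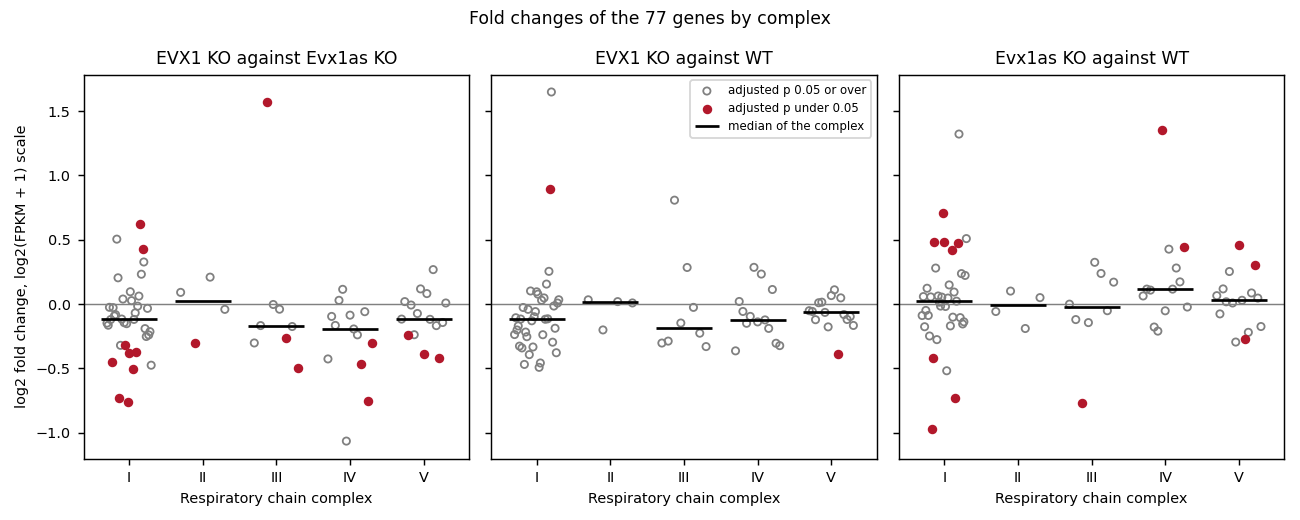
Log2 fold change on the log2(FPKM + 1) scale of each member by complex in the 3 comparisons, with called members marked and a bar at the median of each complex. Members scatter on both sides of 0 in Evx1as KO against WT, while most lie below 0 in EVX1 KO against WT (52 of 77) and against Evx1as KO (57 of 77).

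Complex I, the largest of the 5, has core subunits that carry the flavin and iron-sulfur clusters and many accessory subunits. In Evx1as KO against WT 5 of its 37 genes were called higher and 3 lower, together 21.6% against 24.5% of the genes tested, which is not above the background.

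Ndufs4, an accessory subunit whose loss causes Leigh syndrome in humans and a like disease in mice, was the sole member called higher in both knockouts against WT. The gene (chromosome 13, 115078002 to 115178302, positions as in the deposited table throughout) had 13.4, 14.1 and 16.1 FPKM in EVX1 KO, 10.5, 11.1 and 10.02 in Evx1as KO, and 7.56 and 7.08 in WT. No group overlapped another: EVX1 KO was highest, Evx1as KO between, and WT lowest. Means were 14.5 ± 1.36 FPKM in EVX1 KO, 10.6 ± 0.545 in Evx1as KO and 7.32 ± 0.337 in WT. On the log2 scale the difference was 0.90 ± 0.11, adjusted p = 0.0150 in EVX1 KO against WT, 0.47 ± 0.11, adjusted p = 0.0143 in Evx1as KO against WT and 0.43 ± 0.096, adjusted p = 0.0155 in EVX1 KO against Evx1as KO. Leaving aside a fit with the replicate number as a block, here as for the genes below, the call in EVX1 KO against WT was lost without EVX1 KO replicate 2 or WT replicate 1 or 2 or in a fit of only these groups (highest adjusted p = 0.145). That in Evx1as KO against WT was lost without WT replicate 1 or 2 (highest adjusted p = 0.0823), and that in EVX1 KO against Evx1as KO without EVX1 KO replicate 2 or Evx1as KO replicate 3 (highest adjusted p = 0.0651).

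The other complex I genes called higher in Evx1as KO against WT were accessory subunits, chiefly of the membrane arm. Ndufb3 (chromosome 1, 58643442 to 58652792) had 65.7, 61.9 and 57.2 FPKM in EVX1 KO, 106, 104 and 105 in Evx1as KO, and 78.4 and 52.4 in WT. Its Evx1as KO libraries lay close together and above all others, while WT replicate 2 was the lowest of all 8. This gave log2 fold changes of 0.70 ± 0.15, adjusted p = 0.0106 in Evx1as KO against WT and −0.76 ± 0.13, adjusted p = 0.00550 in EVX1 KO against Evx1as KO. Leaving out WT replicate 1 or 2 gave 0.99 or 0.42 for the first of these, and the call was kept in all alternatives that held the gene. Ndufb3 lies on chromosome 1, where the median deviation of 470 genes from their mean over the libraries was 0.14, 0.13 and 0.12 in EVX1 KO replicates 1 to 3, −0.10, −0.086 and −0.087 in Evx1as KO, and 0.024 and −0.10 in WT. Its Evx1as KO libraries thus stood above all others, while the median of its chromosome lay below 0 in those libraries. The median of the 6 members on chromosome 1 was −0.085, 0.015 and −0.016 in EVX1 KO replicates 1 to 3. In Evx1as KO that median was 0.017, 0.070 and 0.013, and in WT 0.12 and −0.11. Ndufa6, a subunit of the LYR family that binds the acyl carrier protein Ndufab1 at the peripheral arm, had 104, 93.5 and 89.8 FPKM in EVX1 KO, 166, 146 and 167 in Evx1as KO, and 120.2 and 108 in WT. Here EVX1 KO was lowest, WT between and Evx1as KO highest, with no overlap. Its values were 0.48 ± 0.10, adjusted p = 0.0102 in Evx1as KO against WT, a call lost without WT replicate 2 (highest adjusted p = 0.0737), and −0.73 ± 0.089, adjusted p = 0.00115 in EVX1 KO against Evx1as KO, a call kept in every alternative.

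Ndufb4 and Ndufc1 followed the same order of Evx1as KO above both other groups. Ndufb4 had 108, 81.2 and 95.2 FPKM in EVX1 KO, 125, 123 and 121 in Evx1as KO, and 85.5 and 91.1 in WT, and Ndufc1 had 41.2, 40.3 and 34.9 FPKM in EVX1 KO, 53.5, 45.5 and 52.9 in Evx1as KO, and 40.1 and 34.9 in WT. In both genes every Evx1as KO library was above all others, and EVX1 KO overlapped WT. Ndufb4 gave 0.48 ± 0.11, adjusted p = 0.0174 in Evx1as KO against WT and −0.38 ± 0.10, adjusted p = 0.0290 in EVX1 KO against Evx1as KO. Ndufc1 gave 0.42 ± 0.11, adjusted p = 0.0274 and −0.38 ± 0.10, adjusted p = 0.0309 in the same order of comparisons. These calls were less stable: that of Ndufb4 in Evx1as KO against WT was lost without Evx1as KO replicate 1 or WT replicate 1 or 2 (highest adjusted p = 0.101), and that of Ndufc1 without Evx1as KO replicate 1 or 3 or WT replicate 1 or 2 or with no filter on low values (highest adjusted p = 0.168). For EVX1 KO against Evx1as KO the call of Ndufb4 was lost without EVX1 KO replicate 2 or 3 or Evx1as KO replicate 1, 2 or 3 or with no filter on low values (highest adjusted p = 0.0933) and Ndufc1 without EVX1 KO replicate 2 or 3 or Evx1as KO replicate 1 or 3 or with no filter on low values (highest adjusted p = 0.108). The acyl carrier protein Ndufab1, which is also a complex I subunit but does not match the symbols used, gave −0.43 ± 0.088, adjusted p = 0.0104 in EVX1 KO against Evx1as KO and 0.23 ± 0.098, adjusted p = 0.120 in Evx1as KO against WT.

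Ndufa4l2 and Ndufa5 were called lower in Evx1as KO against WT. Ndufa4l2, a target of the hypoxia-inducible factor HIF-1, is related to Ndufa4, a protein first assigned to complex I and since found with complex IV. Ndufa4l2 (chromosome 10, 126951994 to 126954210) had 3.11, 1.85 and 1.59 FPKM in EVX1 KO, 1.15, 1.09 and 1.36 in Evx1as KO, and 3.31 and 3.33 in WT. All Evx1as KO libraries lay below the others, and EVX1 KO replicate 1 came close to WT. The log2 fold change was −0.97 ± 0.20, adjusted p = 0.00986 in Evx1as KO against WT, lost without WT replicate 1 or 2 (highest adjusted p = 0.0597). The number of reads behind these low values is unknown, and the Ndufa4l2 locus overlaps Shmt2 by 33 bases as deposited. Ndufa4 had 220.4, 223 and 249 FPKM in EVX1 KO, 217, 244 and 275 in Evx1as KO, and 251 and 219.8 in WT, with no group apart from another, so that Ndufa4l2 made up at most 1.49% of the pair's FPKM. Ndufa5, a subunit of the peripheral arm, had 36.5, 39.01 and 44.1 FPKM in EVX1 KO, 35.9, 35.8 and 31.6 in Evx1as KO, and 51.7 and 41.6 in WT, so that Evx1as KO lay below all other libraries. It gave −0.42 ± 0.12, adjusted p = 0.0366 in Evx1as KO against WT, and this call was lost without EVX1 KO replicate 2, Evx1as KO replicate 1, 2 or 3 or WT replicate 1 or with no filter on low values (highest adjusted p = 0.228).

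Ndufs5 and Ndufb6 had large fold changes that were not called. Ndufs5 had 34.4, 32.9 and 37.1 FPKM in EVX1 KO, 25.4, 29.6 and 27.6 in Evx1as KO, and 22.2 and 4.60 in WT. WT replicate 2 stood far below the other 7 libraries. This gave log2 fold changes of 1.65 ± 0.45, adjusted p = 0.0987 in EVX1 KO against WT and 1.32 ± 0.45, adjusted p = 0.0623 in Evx1as KO against WT. Without WT replicate 2 they were 0.63 and 0.30. Ndufs5 shares 5453 bases of its locus with BC002163, which averaged 72.9 FPKM, so its level is uncertain. Ndufb6 had 30.5, 42.5 and 49.8 FPKM in EVX1 KO, 36.6, 37.7 and 44.3 in Evx1as KO, and 52.1 and 62.1 in WT, with WT above both knockouts but a wide spread within each, and gave −0.49 ± 0.19, adjusted p = 0.183 in EVX1 KO against WT and −0.52 ± 0.19, adjusted p = 0.0739 in Evx1as KO against WT.

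Against Evx1as KO, EVX1 KO was also called lower for Ndufb7 (−0.50 ± 0.14, adjusted p = 0.0303), Ndufa13 (−0.45 ± 0.13, adjusted p = 0.0367) and Ndufb11 (−0.32 ± 0.078, adjusted p = 0.0212), all accessory subunits. Ndufb7 and Ndufa13 lie on chromosome 8. Ndufb7 (chromosome 8, 86090656 to 86095522) had 121, 118 and 167 FPKM in EVX1 KO, 191, 197 and 183 in Evx1as KO, and 203 and 167 in WT, and Ndufa13 had 49.8, 42.4 and 56.9 FPKM in EVX1 KO, 76.1, 58.9 and 69.4 in Evx1as KO, and 65.9 and 58.6 in WT. In both genes EVX1 KO replicates 1 and 2 were the lowest of all libraries, and replicate 3 lay nearer to the other groups. Chromosome 8 as a whole did likewise: the median deviation of its 505 genes was −0.38, −0.30 and 0.085 in EVX1 KO replicates 1 to 3, 0.16, 0.15 and 0.15 in Evx1as KO, and 0.11 and 0.0091 in WT. The median of its 3 members (Cox4i1, Ndufa13 and Ndufb7) was −0.43, −0.47 and 0.019 in EVX1 KO replicates 1 to 3, 0.24, 0.084 and 0.21 in Evx1as KO, and 0.20 and 0.015 in WT. The Ndufb7 call was lost without EVX1 KO replicate 1 or 2 or Evx1as KO replicate 1, 2 or 3 or with no filter on low values (highest adjusted p = 0.112), that of Ndufa13 without EVX1 KO replicate 1 or 2 or Evx1as KO replicate 1 or 3 or with no filter on low values (highest adjusted p = 0.128), and that of Ndufb11 without EVX1 KO replicate 2 or Evx1as KO replicate 1 or 3 (highest adjusted p = 0.0756). The part of the chromosome shift in these results was not tested.

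**Figure D3:**
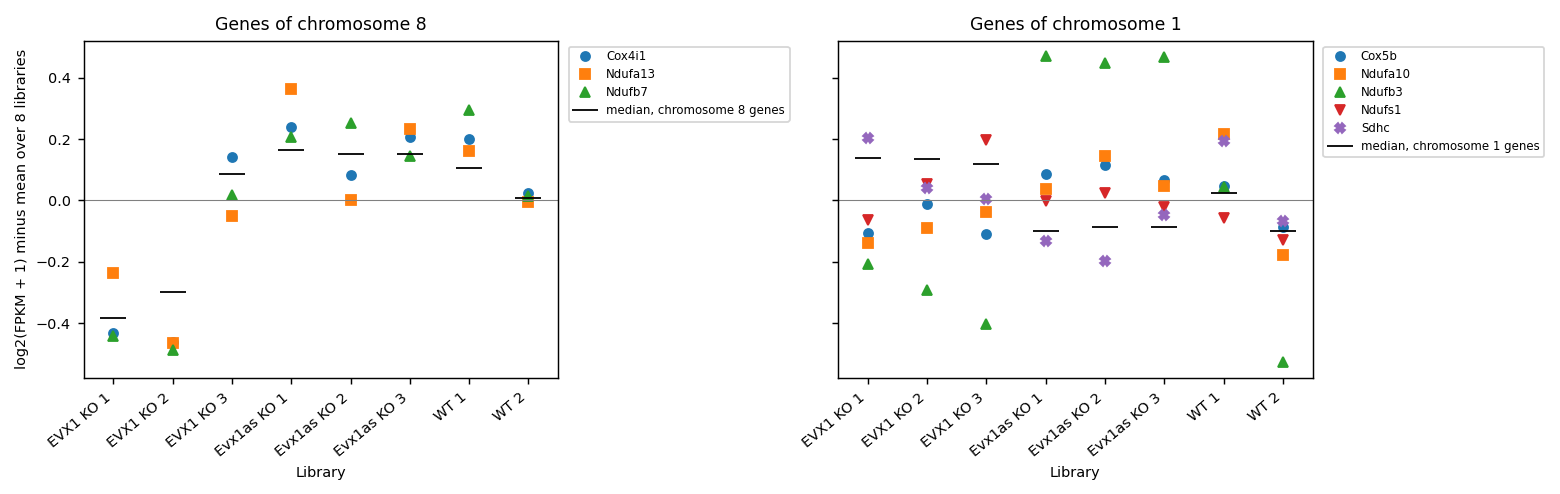
Log2(FPKM + 1) of the members shown on chromosome 8 (left) and chromosome 1 (right) in each library, minus the gene's mean over the 8 libraries; bars mark the median of all genes of that chromosome averaging 5 FPKM or more. On chromosome 8 the members sit near the chromosome's bar and are low in EVX1 KO replicates 1 and 2, while on chromosome 1 Ndufb3 lies far above the bar in Evx1as KO.

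Among the conserved core subunits encoded in the nucleus, the flavin subunit Ndufv1 gave −0.38 ± 0.10, adjusted p = 0.0987 in EVX1 KO against WT and −0.14 ± 0.10, adjusted p = 0.359 in Evx1as KO against WT. The core subunits Ndufv2, Ndufs1, Ndufs3, Ndufs7 and Ndufs8 ranged from −0.15 to 0.24 in Evx1as KO against WT and from −0.19 to 0.25 in EVX1 KO against WT, with none called. In all, 26 of the 37 complex I genes were called in no comparison, with mean levels from 18.03 to 237 FPKM. Of all genes tested, 66.7% were called in none.

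Complex II, which is also the succinate dehydrogenase of the citric acid cycle and is wholly nuclear, was nearly level. Sdha, the flavoprotein, had 67.9, 73.1 and 80.6 FPKM in EVX1 KO, 69.8, 71.1 and 66.5 in Evx1as KO, and 80.1 and 64.6 in WT. Sdhb, the iron-sulfur subunit, had 75.9, 75.6 and 88.3 FPKM in EVX1 KO, 94.4, 104 and 97.8 in Evx1as KO, and 92.6 and 91.02 in WT. Sdhc and Sdhd anchor the enzyme in the membrane. Sdhc had 118, 105 and 103 FPKM in EVX1 KO, 93.1, 89.1 and 98.97 in Evx1as KO, and 117 and 97.7 in WT, and Sdhd had 47.3, 45.4 and 45.2 FPKM in EVX1 KO, 50.3, 45.2 and 46.6 in Evx1as KO, and 45.9 and 45.4 in WT. For Sdha and Sdhd the groups overlapped in every comparison, and the largest library of Sdhd was 1.11 times the smallest. For Sdhc all EVX1 KO libraries lay above all Evx1as KO libraries (0.21 ± 0.094, adjusted p = 0.141), which was not called. Sdhc lies on chromosome 1, whose medians are given above, and the part of that shift was not tested. Sdhb was lower in EVX1 KO than in Evx1as KO (−0.30 ± 0.083, adjusted p = 0.0321) with all EVX1 KO libraries below both other groups, a call lost without EVX1 KO replicate 1 or 2 or Evx1as KO replicate 1, 2 or 3 (highest adjusted p = 0.122). It was the sole complex II gene called in any comparison, and the fold changes of the 4 genes against WT ran from −0.19 to 0.10 in Evx1as KO and from −0.20 to 0.033 in EVX1 KO.

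Complex III held the widest split between the knockouts. Uqcrb, a small subunit close to the ubiquinone-binding part of the complex (chromosome 13, 67001556 to 67006286), had 14.7, 22.1 and 29.9 FPKM in EVX1 KO, 5.60, 6.60 and 7.48 in Evx1as KO, and 11.97 and 11.6 in WT. No group overlapped another: every EVX1 KO library was above WT, and every Evx1as KO library below it. Means were 22.2 ± 7.57 FPKM in EVX1 KO, 6.56 ± 0.938 in Evx1as KO and 11.8 ± 0.258 in WT. On the log2 scale the difference was 1.57 ± 0.21, adjusted p = 0.00186 in EVX1 KO against Evx1as KO, the largest called of any member, and this call was kept in every alternative. It was −0.77 ± 0.24, adjusted p = 0.0469 in Evx1as KO against WT, lost without EVX1 KO replicate 2, Evx1as KO replicate 1, 2 or 3 or WT replicate 1 or 2, at a pseudocount of 5 FPKM or with no filter on low values (highest adjusted p = 0.170), and 0.81 ± 0.24, adjusted p = 0.114 in EVX1 KO against WT, which was not called. Uqcrb was also the lowest gene of complex III, the other 7 averaging 38.6 to 241 FPKM.

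The other genes of complex III did not share that pattern. Uqcrq, a small membrane subunit (chromosome 11, 53242449 to 53244333), had 80.6, 92.5 and 84.8 FPKM in EVX1 KO, 114, 123 and 128 in Evx1as KO, and 109 and 108 in WT. EVX1 KO was lowest and Evx1as KO highest without overlap, at −0.50 ± 0.079, adjusted p = 0.00363 in EVX1 KO against Evx1as KO, a call kept in every alternative. Uqcr10 had 113, 109 and 105 FPKM in EVX1 KO, 141, 124 and 139 in Evx1as KO, and 155 and 117 in WT, with EVX1 KO below all other libraries, and gave −0.30 ± 0.12, adjusted p = 0.195 in EVX1 KO against WT and −0.30 ± 0.11, adjusted p = 0.0744 in EVX1 KO against Evx1as KO. Uqcrfs1, the Rieske iron-sulfur protein, had 40.2, 40.3 and 41.7 FPKM in EVX1 KO, 51.6, 46.6 and 49.3 in Evx1as KO, and 44.7 and 38.5 in WT. It gave −0.26 ± 0.082, adjusted p = 0.0496 in EVX1 KO against Evx1as KO, at the edge of the threshold and lost without EVX1 KO replicate 1, 2 or 3 or Evx1as KO replicate 1, 2 or 3, at a pseudocount of 0.1 FPKM or with no filter on low values (highest adjusted p = 0.147). The core protein Uqcrc2 had 35.1, 43.3 and 41.9 FPKM in EVX1 KO, 42.3, 38.9 and 42.2 in Evx1as KO, and 30.2 and 35.3 in WT and gave 0.32 ± 0.12, adjusted p = 0.0697 in Evx1as KO against WT. Uqcrc1, Uqcrh and Uqcr11 were not called in any comparison. Below 0 lay 6 of the 8 genes in EVX1 KO against WT. Above 0 lay 25.0% of them, against 52.9% of the genes tested. None of the 8 was called in that comparison, against 1.24% of the genes tested.

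Complex IV has a mitochondrially encoded core surrounded by nuclear subunits, several of which exist in tissue forms. In Evx1as KO against WT Cox7c and Cox6b2 were called higher and none lower. This is 15.4% of the 13 complex IV genes, against 24.5% of the genes tested. Cox7c, a small membrane subunit with no alternative gene among the symbols matched (chromosome 13, 86184402 to 86186400), had 217, 222 and 225 FPKM in EVX1 KO, 356, 371 and 395 in Evx1as KO, and 255 and 294 in WT. EVX1 KO was lowest, WT between and Evx1as KO highest, without overlap. Means were 221 ± 4.16 FPKM in EVX1 KO, 374 ± 19.6 in Evx1as KO and 274 ± 27.01 in WT. The log2 fold change was 0.45 ± 0.086, adjusted p = 0.00769 in Evx1as KO against WT, lost without WT replicate 1 (highest adjusted p = 0.0601). It was −0.75 ± 0.077, adjusted p = 0.000569 in EVX1 KO against Evx1as KO, a call kept in every alternative, and −0.30 ± 0.086, adjusted p = 0.104 in EVX1 KO against WT.

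Cox6b2, the form of subunit VIb known from testis (chromosome 7, 4703395 to 4704696), had 64.2, 34.8 and 19.1 FPKM in EVX1 KO, 84.6, 58.8 and 82.9 in Evx1as KO, and 28.4 and 28.7 in WT. All Evx1as KO libraries were above both WT libraries, while EVX1 KO ran from below WT to above 1 of the Evx1as KO libraries. On the log2 scale the difference was 1.35 ± 0.39, adjusted p = 0.0367 in Evx1as KO against WT. This was the largest rise called among the members in that comparison. The difference was −1.07 ± 0.35, adjusted p = 0.0602 in EVX1 KO against Evx1as KO, not called. The call in Evx1as KO against WT was lost without EVX1 KO replicate 2, Evx1as KO replicate 1 or 3 or WT replicate 1 or 2 or with no filter on low values (highest adjusted p = 0.141). Cox6b1, the widely expressed form, had 257, 274 and 281 FPKM in EVX1 KO, 246, 241 and 263 in Evx1as KO, and 303 and 276 in WT and was not called (−0.21 ± 0.083, adjusted p = 0.0948 in Evx1as KO against WT). As a share of the summed FPKM of both genes, Cox6b2 made up 19.96%, 11.3% and 6.36% in EVX1 KO, 25.6%, 19.6% and 23.9% in Evx1as KO, and 8.57% and 9.42% in WT. Cox6b1 therefore remained the larger part in every library.

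The other alternative forms were minor or near 0. Cox7a1, the heart and skeletal muscle form of subunit VIIa, had 24.2, 9.29 and 8.80 FPKM in EVX1 KO, 12.2, 16.03 and 15.96 in Evx1as KO, and 11.7 and 9.61 in WT, and its widely expressed partner Cox7a2 had 67.5, 77.3 and 84.7 FPKM in EVX1 KO, 95.4, 77.9 and 98.3 in Evx1as KO, and 97.1 and 71.03 in WT. EVX1 KO replicate 1 had the highest Cox7a1 of all libraries, and its group was the widest. Neither gene was called in a comparison, and of their sum Cox7a1 made up 26.4%, 10.7% and 9.41% in EVX1 KO, 11.3%, 17.1% and 13.96% in Evx1as KO, and 10.8% and 11.9% in WT. Cox4i2 never exceeded 1.89 FPKM and made up at most 0.427% of its sum with Cox4i1. The muscle forms Cox6a2 and Cox8b were listed at 0 in every library beside Cox6a1 and Cox8a, and skeletal muscle markers were likewise at or near 0.

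None of the 13 complex IV genes was called higher in EVX1 KO against Evx1as KO (10.7% of genes tested were). Lower were 3 of them, or 23.1%, against 11.3% of the genes tested. Besides Cox7c these were Cox8a, the widely expressed form of subunit VIII, and Cox7a2l, a relative of Cox7a2 that takes part in joining complexes III and IV into supercomplexes. Cox8a had 405, 453 and 446 FPKM in EVX1 KO, 545, 514 and 545 in Evx1as KO, and 574 and 514 in WT, so that EVX1 KO lay below all other libraries. Cox7a2l had 88.8, 82.2 and 77.5 FPKM in EVX1 KO, 105, 112 and 129 in Evx1as KO, and 106 and 84.5 in WT, with EVX1 KO below all Evx1as KO libraries and overlapping WT. The log2 fold changes were −0.30 ± 0.077, adjusted p = 0.0246 for Cox8a and −0.47 ± 0.11, adjusted p = 0.0187 for Cox7a2l. The call of Cox8a was lost without EVX1 KO replicate 1 or 2 or Evx1as KO replicate 1 or 3 or with no filter on low values (highest adjusted p = 0.0904), and that of Cox7a2l without EVX1 KO replicate 2 or Evx1as KO replicate 3 (highest adjusted p = 0.0741). Cox4i1, the main form of subunit IV and the gene of complex IV on chromosome 8, had 284, 278 and 423 FPKM in EVX1 KO, 452, 406 and 442 in Evx1as KO, and 440.3 and 390.0 in WT. EVX1 KO replicates 1 and 2 were low and replicate 3 was not, and the gene was not called (−0.36 ± 0.17, adjusted p = 0.254 in EVX1 KO against WT, and −0.43 ± 0.15, adjusted p = 0.0736 in EVX1 KO against Evx1as KO).

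**Figure D4:**
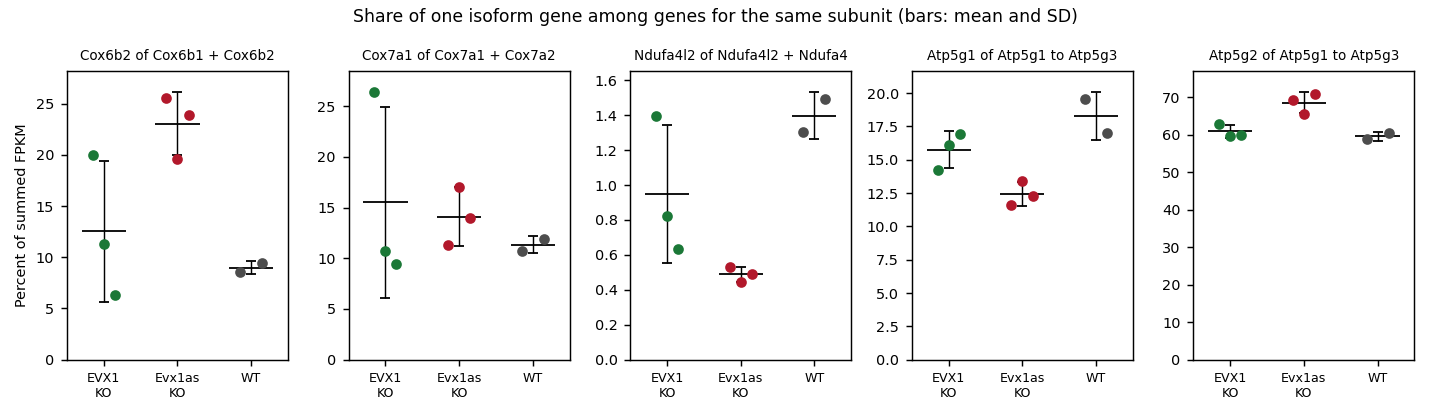
Share of 1 gene in the summed FPKM of the genes for the same subunit (percent, y axis from 0) for Cox6b2, Cox7a1, Ndufa4l2, Atp5g1 and Atp5g2; points are libraries and bars the mean and SD of EVX1 KO, Evx1as KO and WT. Evx1as KO lies above WT for Cox6b2 and Atp5g2 and below it for Ndufa4l2 and Atp5g1, and the EVX1 KO libraries are spread widely for the first 3 panels.

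Complex V consists of the catalytic F1 head, the proton-carrying ring of subunit c in the membrane, a central and a peripheral stalk, and small membrane subunits. In Evx1as KO against WT Atp5g2 and Atp5k were called higher and Atp5h lower. These are 20.0% of the 15 complex V genes, against 24.5% of the genes tested. Promoters of these 3 genes and of Ndufb7 are shown as examples of called genes with a match, upstream of the start, to the core letters of NRF1 or GABPA, factors known to control nuclear genes of the respiratory chain. Each runs 5′ to 3′ on the gene's strand in RefSeq's GRCm38.p6, with the motif in capitals and up to 40 bases on either side. Atp5k (chr5:108434401-108434488, minus strand) and Atp5g2 (chr15:102671048-102671128, minus strand) hold the NRF1 letters GCATGCG on both strands, so that the capitals cover both matches. Atp5h (chr11:115419920-115419997, minus strand) and Ndufb7 (chr8:83566698-83566757, plus strand) hold the GABPA letters CCGGAAG, in Atp5h on the other strand.
Atp5k: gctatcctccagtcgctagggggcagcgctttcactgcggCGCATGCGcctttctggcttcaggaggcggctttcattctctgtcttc
Atp5g2: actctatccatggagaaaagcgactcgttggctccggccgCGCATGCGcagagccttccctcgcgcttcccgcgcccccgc
Atp5h: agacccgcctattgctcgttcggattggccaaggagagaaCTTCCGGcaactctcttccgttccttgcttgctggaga
Ndufb7: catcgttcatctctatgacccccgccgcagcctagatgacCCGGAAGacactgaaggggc

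Promoters were searched from 250 bases before to 50 after each start, on both strands, for NRF1 (GCATGCG), GABPA (CCGGAAG) and YY1 (AAGATGG) letters. The last 3 GABPA letters are the first 3 of YY1, so matches to both can overlap. The NRF1 and YY1 letters are cores taken after longer forms of both had been searched and seen. Of the 77 genes, 65 matched a RefSeq promoter, with 70 promoters in all. NRF1 letters were found in 11 member promoters (15.7%), against 6.34% of 12059 promoters of tested genes and 3.58% of all 32851 promoters. GABPA letters were in 16 (22.9%), against 17.6% and 8.86%. YY1 letters were in 11 (15.7%), against 7.06% and 6.34%. Among the 65 genes with a promoter, 9 were called higher in Evx1as KO against WT, 2 lower and 54 not. Of all genes tested, 13.0% were called higher in that comparison and 11.4% lower. Of the 11 genes with NRF1 letters, Atp5k, Atp5g2 and Ndufa6 were called higher in Evx1as KO against WT. The other 8, Atp5j, Atp5l, Cox6a1, Ndufa8, Ndufa11, Sdhb, Uqcrc1 and Uqcr11, were not called there. Of the 11 genes with YY1 letters, Ndufs4, Ndufc1 and Cox7c were called higher in Evx1as KO against WT and the other 8 were not called. Of the 16 genes with GABPA letters, Atp5k was called higher there, Atp5h lower and the other 14 were not called. A match is a description of letters and shows no binding.

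Subunit c, which forms the rotating ring, is encoded by Atp5g1, Atp5g2 and Atp5g3, whose mature proteins are the same. Atp5g2 (chromosome 15, 102493298 to 102501478 in the deposited table) had 536, 505 and 496 FPKM in EVX1 KO, 736, 568 and 724 in Evx1as KO, and 488 and 489.8 in WT. Every Evx1as KO library was above all others, with replicate 2 the lowest of them. This gave log2 fold changes of 0.46 ± 0.11, adjusted p = 0.0205 in Evx1as KO against WT and −0.39 ± 0.10, adjusted p = 0.0265 in EVX1 KO against Evx1as KO. Atp5g1 had 121, 136 and 140.0 FPKM in EVX1 KO, 124, 117 and 125 in Evx1as KO, and 162 and 138 in WT and was not called (−0.30 ± 0.10, adjusted p = 0.0594 in Evx1as KO against WT). Atp5g3 had 195, 205 and 191 FPKM in EVX1 KO, 202, 184 and 173 in Evx1as KO, and 180.2 and 184 in WT, nearly level over the groups. Of the summed FPKM of the 3 genes, Atp5g2 made up 62.9%, 59.7% and 59.95% in EVX1 KO, 69.3%, 65.4% and 70.8% in Evx1as KO, and 58.7% and 60.3% in WT, and Atp5g1 14.2%, 16.1% and 16.9% in EVX1 KO, 11.6%, 13.4% and 12.3% in Evx1as KO, and 19.6% and 16.98% in WT. The Atp5g2 call in Evx1as KO against WT was lost without Evx1as KO replicate 1 or 3 or WT replicate 1 or 2 or with no filter on low values (highest adjusted p = 0.0948), and that in EVX1 KO against Evx1as KO without EVX1 KO replicate 2 or 3 or Evx1as KO replicate 1 or 3 or with no filter on low values (highest adjusted p = 0.103).

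Atp5k encodes the small membrane subunit e, which takes part in joining ATP synthase into dimers. The gene (chromosome 5, 108862271 to 108863397 in the deposited table) had 207, 221 and 212 FPKM in EVX1 KO, 279, 306 and 275 in Evx1as KO, and 250.2 and 215 in WT. Evx1as KO lay above all other libraries, and EVX1 KO overlapped WT. The log2 fold change was −0.42 ± 0.082, adjusted p = 0.00836 in EVX1 KO against Evx1as KO, kept in every alternative. It was 0.30 ± 0.091, adjusted p = 0.0411 in Evx1as KO against WT, lost without EVX1 KO replicate 2, Evx1as KO replicate 1, 2 or 3 or WT replicate 2, with no filter on low values, under median-ratio scaling or in a fit of only these groups (highest adjusted p = 0.249).

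Atp5h encodes subunit d of the peripheral stalk, which holds the catalytic head still. It (chromosome 11, 115277010 to 115281233 in the deposited table) had 156, 168 and 163 FPKM in EVX1 KO, 179, 179 and 172 in Evx1as KO, and 213 and 213 in WT. Both knockouts lay below both WT libraries, and all EVX1 KO libraries below all Evx1as KO libraries. Means were 162 ± 6.06 FPKM in EVX1 KO, 176 ± 3.90 in Evx1as KO and 213 ± 0.423 in WT. It was the sole member called lower in both knockouts against WT, at −0.39 ± 0.072, adjusted p = 0.0432 in EVX1 KO and −0.27 ± 0.072, adjusted p = 0.0265 in Evx1as KO. The first call was lost without EVX1 KO replicate 1 or 2, Evx1as KO replicate 1, 2 or 3 or WT replicate 1 or 2, with no filter on low values or in a fit of only these groups (highest adjusted p = 0.212), and the second without Evx1as KO replicate 1 or 3 or WT replicate 1 or 2 (highest adjusted p = 0.101).

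The remaining complex V genes moved less. Atp5c1, the gamma subunit of the central stalk, had 97.9, 103 and 107 FPKM in EVX1 KO, 118, 122 and 123 in Evx1as KO, and 113 and 110.2 in WT, with EVX1 KO below WT and Evx1as KO above it in every library. It was lower in EVX1 KO than in Evx1as KO (−0.24 ± 0.067, adjusted p = 0.0343), lost without EVX1 KO replicate 1 or 2 or Evx1as KO replicate 1, 2 or 3 (highest adjusted p = 0.115). Atp5o, the peripheral stalk protein OSCP, had 192, 205 and 201 FPKM in EVX1 KO, 195, 206 and 193 in Evx1as KO, and 229.9 and 218 in WT and gave −0.17 ± 0.075, adjusted p = 0.245 in EVX1 KO against WT, with every knockout library below both WT libraries. Atp5j, the coupling factor F6, had 40.2, 40.5 and 47.7 FPKM in EVX1 KO, 42.7, 32.9 and 31.2 in Evx1as KO, and 45.6 and 37.2 in WT, with overlap between all groups, and gave 0.27 ± 0.14, adjusted p = 0.186 in EVX1 KO against Evx1as KO. The alpha and beta subunits Atp5a1 and Atp5b gave 0.065 and −0.077 in Evx1as KO against WT and −0.052 and −0.057 in EVX1 KO against WT, and neither was called. Called in no comparison were 11 of the 15 complex V genes, whose log2 fold changes ran from −0.30 to 0.25 in Evx1as KO against WT and from −0.18 to 0.11 in EVX1 KO against WT. Over all complexes 54 of the 77 (70.1%) were called in none, against 66.7% of the genes tested.

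**Figure D5:**
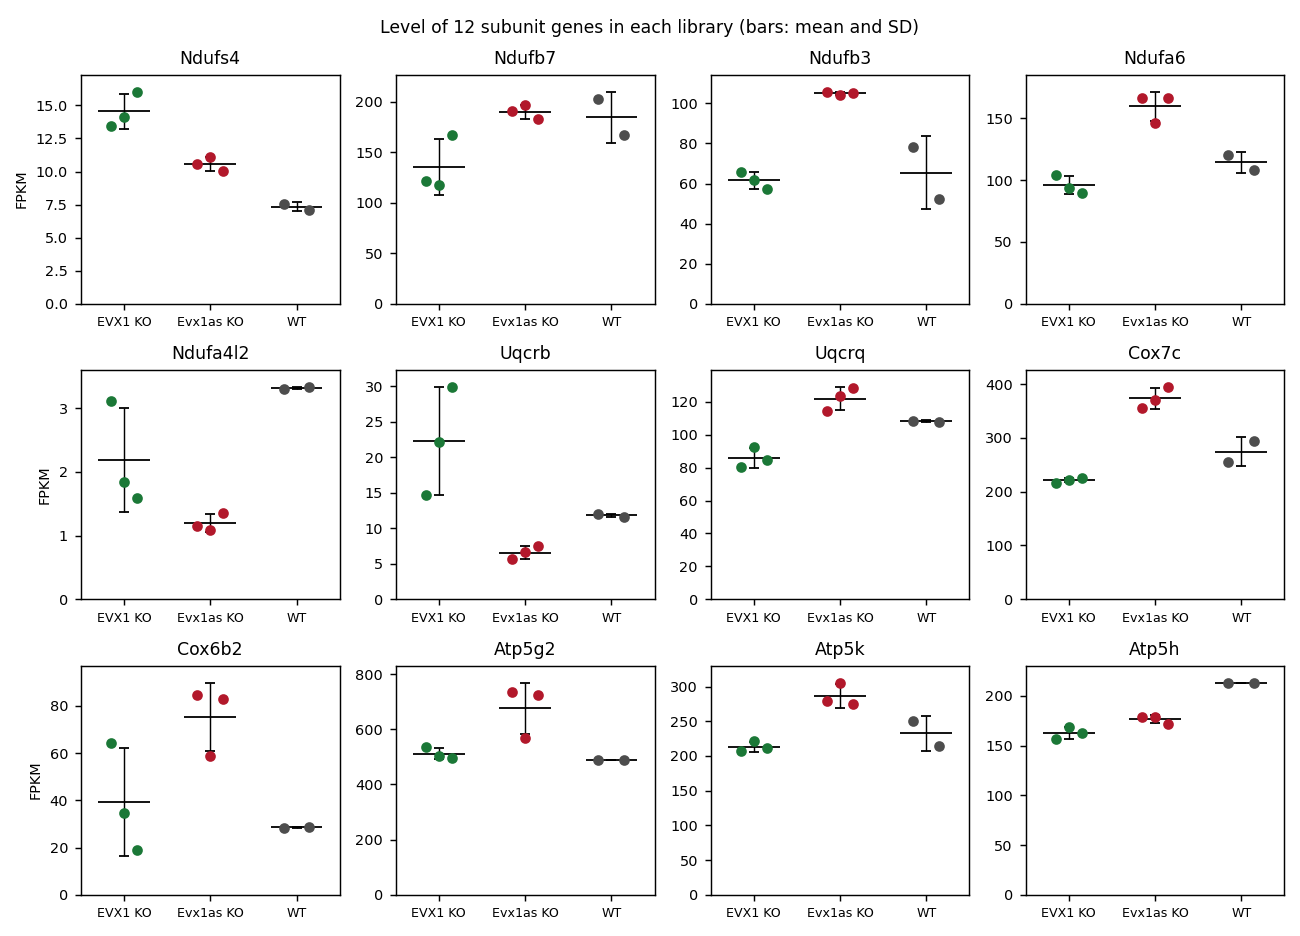
FPKM (y axes from 0) of 12 subunit genes in each library, with bars for the mean and SD of EVX1 KO, Evx1as KO and WT from left to right. Evx1as KO is the highest group for Ndufb3, Ndufa6, Uqcrq, Cox7c, Cox6b2, Atp5g2 and Atp5k and the lowest for Ndufa4l2 and Uqcrb, while Atp5h is highest in WT.

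Genes that serve the same pathway but are no members were read from lists. Of all genes tested, 13.0% were called higher and 11.4% lower in Evx1as KO against WT, 0.690% and 0.554% in EVX1 KO against WT, and 10.7% and 11.3% in EVX1 KO against Evx1as KO, so the small counts of these lists say nothing particular to them. Of 14 complex I assembly factors tested, 3 were called higher in Evx1as KO against WT, Ndufaf7 (0.80 ± 0.16, adjusted p = 0.00810), Nubpl (0.76 ± 0.23, adjusted p = 0.0432) and Ndufaf6 (0.70 ± 0.20, adjusted p = 0.0329), and none lower. Called lower in EVX1 KO against Evx1as KO were Ndufaf7 (−0.62) and Ndufaf2 (−0.55). Of 23 complex IV assembly factors, Cox20 was called higher (1.34) and the copper proteins Sco2 (−0.57) and Cox17 (−0.23) lower in Evx1as KO against WT. Cox17 was also called lower in EVX1 KO against WT (−0.43 ± 0.072, adjusted p = 0.0344). With EVX1 KO against Evx1as KO, Cox14 (−0.54), Cmc2 (−0.52) and Pet100 (−0.67) were called lower, of which Cmc2 and Pet100 lie on chromosome 8. The 2 tested assembly factors of complex II, 2 of complex III, 5 assembly factors or inhibitors of complex V and 2 cytochrome c genes were not called in any comparison.

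Of 19 genes of mitochondrial biogenesis and mitochondrial DNA expression, 4 were called higher in Evx1as KO against WT and 2 lower. Higher were Mterfd2 (0.58), Tfb1m (0.47), the single-strand binding protein Ssbp1 (0.41) and the packaging factor Tfam (0.35). Lower were the mitochondrial transcription factor Tfb2m (−0.58) and the mitochondrial RNA polymerase Polrmt (−0.37). None was called in EVX1 KO against WT, and Tfb2m was higher in EVX1 KO than in Evx1as KO (0.58). Of 12 genes of ubiquinone synthesis Coq2 was called higher in Evx1as KO against WT (0.35), and Coq7 (−0.44) and Coq9 (−0.42) were called lower in EVX1 KO against Evx1as KO.

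Of 17 genes of the citric acid cycle and pyruvate dehydrogenase, 2 were called higher and 2 lower in Evx1as KO against WT. Suclg2 (0.82) and Idh2 (0.61) were higher, and citrate synthase Cs (−0.41) and malate dehydrogenase Mdh2 (−0.34) lower. In EVX1 KO against Evx1as KO, Pdhb (0.75), Sucla2 (0.64) and Fh1 (0.49) were called higher and Suclg2 lower (−0.68). Pdhb and Sucla2 lie on chromosome 14, whose median deviation was 0.17, 0.18 and 0.16 in EVX1 KO replicates 1 to 3, 0.13, −0.36 and −0.34 in Evx1as KO, and 0.053 and −0.027 in WT. Of 9 genes that set the use of pyruvate, the pyruvate dehydrogenase kinases Pdk1 (1.39) and Pdk2 (1.04) and lactate dehydrogenase Ldha (0.36) were called higher in Evx1as KO against WT and the pyruvate carrier subunit Mpc2 (−0.67) lower. The uncoupling protein Ucp2 was called higher in Evx1as KO against WT (0.93), as was its relative Slc25a27 (0.87), and Ucp2 was lower in EVX1 KO than in Evx1as KO (−0.46). The 3 tested adenine nucleotide and phosphate carriers were not called. Where no chromosome is named for a gene of these lists, the gene may still lie on a chromosome with such a shift.

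Ribosomal protein genes gave a measure of other housekeeping genes. Of all genes tested, 13.0% were called higher and 11.4% lower in Evx1as KO against WT. These shares were 0.690% and 0.554% in EVX1 KO against WT, and 10.7% and 11.3% in EVX1 KO against Evx1as KO. Among 83 cytosolic ribosomal protein genes, 61 were called higher and 1 lower in Evx1as KO against WT (median 0.44), and 1 higher and 61 lower in EVX1 KO against Evx1as KO (median −0.37). Called higher in EVX1 KO against WT were 5, and none lower (median 0.024). Of 76 mitochondrial ribosomal protein genes, 9 were called higher and 7 lower in Evx1as KO against WT (median 0.0023), 0 higher and 1 lower in EVX1 KO against WT (median −0.11), and 1 higher and 13 lower in EVX1 KO against Evx1as KO (median −0.11). The medians of the oxidative phosphorylation genes stood nearer to the mitochondrial than to the cytosolic ribosomal proteins in all 3 comparisons; whether they differ from either was not tested. Of 26 symbols searched for mitochondrially encoded subunits, 0 were in the deposited table, so these subunits could not be analysed by symbol.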

How the data were processed

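RNA was measured in 8 poly(A) libraries at day 4, prepared with a TruSeq Stranded kit per the labels. The authors deposited 1 table of FPKM, per the file header, for all libraries. Per the submitters' processing notes, CASAVA and TopHat2 2.0.11 were used and 2 builds, mm10 and mm9, are listed without a role. Which program and annotation gave FPKM, and any use of strand, is not given in the sources. The table's 42245 lines with values carried 38610 symbols, and 2660 symbols stood on several lines with equal values and were used once. Of the 77 members, 5 overlapped their RefSeq gene on GRCm38.p6, so the table's positions are of another build and are printed as deposited. Without known strand handling, genes that overlap others are uncertain: 7 members overlap a symbol with a mean of at least 1 FPKM (Atp5f1, Atp5j, Ndufa13, Ndufa2, Ndufa4l2, Ndufb11 and Ndufs5).

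Groups came from the labels. Log2(FPKM + 1) of the 13188 genes that reached 1 FPKM in 2 or more libraries was fitted with limma 3.58.1 in R 4.3.3, with a mean per group over all 8 libraries, an intensity trend and two-sided tests. Called means a Benjamini-Hochberg adjusted p under 0.05 over all 13188. The steps were checked on simulated data. Members and gene lists were chosen with earlier results of these data known, so no p is given for a list. In each comparison and complex, values in every library are given for up to 3 members with the largest fold changes, for the 5 highest genes and for isoform pairs, and every called member is named but 1, which is counted and not reported here. From other lists, called genes are named up to 5, or else up to 4. Alternatives were other pseudocounts, filters, scaling, fits, weights, chromosomes left out and each library left out. Transcript lengths are from GENCODE M21, as the median over a gene's matched transcripts. Promoter letters for NRF1 and YY1 were first searched as longer forms. The cores were chosen after those results were seen, and the longer forms are not reported here. Scripts ran in Python 3.11.15 with numpy 2.4.6, pandas 2.3.3 and, for plots, matplotlib 3.10.9.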

Additional observations from a re-analysis of the deposited data

How the results depend on the processing

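No member called in a comparison reversed its direction under any alternative, and of the repeats of single called genes 459 stayed called and 129 did not. Without a filter on low values, members called in Evx1as KO against WT were 5 higher and 3 lower, in EVX1 KO against WT 0 lower, and in EVX1 KO against Evx1as KO 9 lower. In EVX1 KO against WT, a fit of only the groups compared gave 0 higher and 0 lower, and array weights 3 and 5. Array weights gave 5 higher in EVX1 KO against Evx1as KO, with medians of −0.13 for complex III and −0.25 for complex IV. Leaving out chromosomes 1, 8 and 14 took Sdhc from complex II. The complex II median was then 0.050 in Evx1as KO against WT and −0.041 in EVX1 KO against Evx1as KO. With Ndufa4 and Ndufa4l2 moved to complex IV and Cox7a2l left out, the complex IV median in EVX1 KO against Evx1as KO was −0.13. Medians with genes left out or moved are of another set of genes, and the cause of the other changes was not tested. The labels do not say whether libraries of the same number were handled together. Same-numbered libraries of different groups correlated between −0.0985 and 0.0759 in their deviations from group means. Not every library correlated best with its own number. Deviations within such small groups depend on each other, so these correlations cannot decide whether numbers were paired. The replicate block gave 0 higher and 0 lower in EVX1 KO against WT and stayed within 1.5 times the count elsewhere. Under the block the calls lost were Ndufs4 (adjusted p = 0.0596) and Atp5h (0.0969) in EVX1 KO against WT, Atp5h (0.0730), Atp5k (0.0797) and Ndufa5 (0.0781) in Evx1as KO against WT, and Atp5c1 (0.0615), Sdhb (0.0511) and Uqcrfs1 (0.0648) in EVX1 KO against Evx1as KO, all by limma.

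Leaving out each library in turn gave 2 to 10 higher and 1 to 7 lower in Evx1as KO against WT, 0 to 1 and 0 to 3 in EVX1 KO against WT, and 2 to 4 and 5 to 18 in EVX1 KO against Evx1as KO. Medians of complexes I to V in Evx1as KO against WT then ran over −0.018 to 0.080, −0.084 to 0.077, −0.094 to 0.10, 0.042 to 0.17 and −0.027 to 0.036. In EVX1 KO against WT those of I to V ran over −0.17 to −0.064, −0.12 to 0.083, −0.20 to −0.12, −0.16 to −0.028 and −0.14 to −0.011. In EVX1 KO against Evx1as KO they ran over −0.14 to −0.080, −0.0016 to 0.050, −0.20 to −0.11, −0.20 to −0.15 and −0.14 to −0.080. Ranges of I, II, III and V in Evx1as KO against WT and of II in the other comparisons include 0. Where 1 WT library was left out, the other was assumed to vary like the other groups. Called in every alternative that held the gene were 2 of 14 members in Evx1as KO against WT, Ndufb3 among them. In EVX1 KO against WT these were 0 of 2. In EVX1 KO against Evx1as KO they were 7 of 19 (among them Atp5k, Cox7c, Ndufa6, Ndufb3, Uqcrb and Uqcrq). The fit without chromosomes 1, 8 and 14 did not hold Ndufb3. Depth in reads is unknown, so no counting error can be given for low genes such as Ndufa4l2.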
